A study of Mus musculus with 31 samples.

Results

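EP3 is 1 of 3 ependymal classes, EP1, EP2 and EP3, that the authors give for cells of the uninjured mouse spinal cord, profiled by open chromatin. Its members are the cells that the deposited class column calls EP3: 163 of the 1084 cells (15.04%), beside 301 EP1 and 290 EP2 cells. The other 330 cells carry the class names ACNT1 (111 cells), ACNT2 (62), OPC (67), VEC (50) and PER (40), which are used here as they stand and pooled as the non-ependymal cells. All of them come from a single 10X single-cell ATAC-seq library of non-neuronal cells, obtained by digesting C57BL/6 spinal cord and sorting by flow cytometry, with no treatment. For side-by-side values only, the 2 RNA-seq libraries of sorted ependymal cells from uninjured cord (Foxj1-tdT, Smart-seq2) were read; they hold all ependymal cells together, and the labels do not say whether they or the ATAC-seq cells came from separate animals.

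The wall of the cord's fluid-filled central canal is formed by ependymal cells, whose motile cilia beat and move the cerebrospinal fluid. The axoneme of such a cilium is a ring of microtubules with dynein motor arms, radial spokes and a central pair, built with the help of intraflagellar transport. Foxj1, a forkhead factor, and the RFX factors, which bind the X-box, are known to switch on the genes of motile cilia.

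ATAC-seq marks open DNA by the cuts of the Tn5 transposase. The authors' matrix counts cut sites in 96670 peaks (median width 587 bases) per cell. Here each class was reduced to the sum of its cells' counts, scaled to a total of 1000000 (CPM), and ratios are log2((CPM + 1) / (CPM + 1)). A gene's value is the sum over peaks that reach within 2 kb of its start. Because there is 1 library and the classes were presumably made from these same cut sites, no difference between classes can be tested: every ratio below is a description, and 95% intervals cover counting error only. The summed depth was 5478416 cut sites in EP3, 4121205 in EP1, 15283010 in EP2 and 7324879 in the non-ependymal cells. An EP3 cell had a median of 30192 cut sites (lowest 2301, quartiles 15058 and 43268, highest 181707), against medians of 10137 in EP1 and 46787.5 in EP2, so EP3 lies between them in depth. The median share of a cell's fragments in peaks was 77.3% in EP3, 73.4% in EP1 and 77.6% in EP2, and the median enrichment at gene starts was 5.18, 5.47 and 5.06 in the same order.

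The promoters of 5 genes are shown because the account below turns on them. Of these, 3 were open in EP3 and low in the pooled non-ependymal cells (Ccdc153, Spag16 and Fam166c). The other 2 were more open in EP3 than in EP1 or EP2 (Anxa8 and Trp73). Each runs 5′ to 3′ on the gene's strand, from 250 bases before the start to 50 after it, as RefSeq gives it in GRCm38.p6. Capitals mark the X-box hexamer GTTGCC or the forkhead motif TGTTTAC, on either strand. The hexamer is only a part of the X-box. They lie at chr9:44240427-44240726 (Ccdc153, plus strand), chr1:69826720-69827019 (Spag16, plus), chr5:30465827-30466126 (Fam166c, plus), chr14:34085729-34086028 (Anxa8, plus) and chr4:154097124-154097423 (Trp73, minus).
Ccdc153: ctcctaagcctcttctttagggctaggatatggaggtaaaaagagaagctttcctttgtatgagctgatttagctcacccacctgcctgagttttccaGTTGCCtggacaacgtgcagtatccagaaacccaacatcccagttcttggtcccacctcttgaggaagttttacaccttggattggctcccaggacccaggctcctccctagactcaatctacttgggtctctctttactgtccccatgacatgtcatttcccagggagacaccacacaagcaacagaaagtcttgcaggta
Spag16: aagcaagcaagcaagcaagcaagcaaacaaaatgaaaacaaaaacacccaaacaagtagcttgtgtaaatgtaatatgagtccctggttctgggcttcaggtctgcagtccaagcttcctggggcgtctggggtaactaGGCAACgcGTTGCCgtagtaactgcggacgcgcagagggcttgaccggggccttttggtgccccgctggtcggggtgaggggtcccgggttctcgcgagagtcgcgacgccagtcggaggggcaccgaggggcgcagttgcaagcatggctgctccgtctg
Fam166c: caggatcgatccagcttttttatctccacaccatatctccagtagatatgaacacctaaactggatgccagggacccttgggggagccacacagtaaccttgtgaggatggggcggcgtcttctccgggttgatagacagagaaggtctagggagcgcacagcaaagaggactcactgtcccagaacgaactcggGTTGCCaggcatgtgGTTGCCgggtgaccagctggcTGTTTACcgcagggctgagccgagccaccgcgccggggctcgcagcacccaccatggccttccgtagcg
Anxa8: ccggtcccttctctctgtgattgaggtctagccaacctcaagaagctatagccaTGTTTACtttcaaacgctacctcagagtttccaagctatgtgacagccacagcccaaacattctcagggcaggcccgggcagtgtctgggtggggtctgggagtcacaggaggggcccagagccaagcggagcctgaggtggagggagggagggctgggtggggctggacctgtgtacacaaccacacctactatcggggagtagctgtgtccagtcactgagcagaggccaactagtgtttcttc
Trp73: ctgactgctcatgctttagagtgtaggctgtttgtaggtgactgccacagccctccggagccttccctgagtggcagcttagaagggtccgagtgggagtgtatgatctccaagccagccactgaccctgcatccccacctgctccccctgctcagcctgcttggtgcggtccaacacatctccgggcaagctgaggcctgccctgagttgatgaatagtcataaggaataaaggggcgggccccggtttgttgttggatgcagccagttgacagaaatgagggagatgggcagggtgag
The Ccdc153 promoter holds 1 X-box hexamer, 152 bases before the start. The Spag16 promoter holds 2 on opposite strands, starting 111 and 103 bases before the start. The Fam166c promoter holds 2, starting 55 and 40 bases before it, and a forkhead motif 19 bases before it. The Anxa8 promoter holds a forkhead motif 196 bases before its start and no X-box hexamer. The window at the internal start of Trp73 holds neither motif.

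The markers of the class were looked at first. Foxj1, the master regulator of motile cilia, gave 281.7 CPM in EP3 (262.2 to 302.2), against 249.9 CPM in EP1, 234.6 CPM in EP2 and 94.6 CPM in the non-ependymal cells. Its peak at chr11:116328911-116337377 spans the whole gene. Tekt4, a tektin of the axoneme's microtubules, gave 112.6 CPM in EP3, 82.3 CPM in EP1, 100.2 CPM in EP2 and 24.3 CPM outside. Ccdc153, a coiled-coil gene used as an ependymal marker, gave 98.9 CPM in EP3, 81.0 CPM in EP1, 80.4 CPM in EP2 and 6.69 CPM outside, a log2 ratio of 3.70. All 3 markers were thus at least 2-fold higher in EP3 than in the non-ependymal cells, and each was somewhat higher in EP3 than in EP1 or EP2. Both ependymal RNA libraries held their transcripts, with normalised counts of 2708.3 and 3054.9 for Foxj1, 2137.6 and 2089.1 for Tekt4, and 22993.5 and 24154.2 for Ccdc153. Neither reading is an independent check of the label. The classes presumably came from the same cut sites, and the RNA came from cells sorted as Foxj1-tdT ependymal cells.

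The markers were open cell by cell, and not only in the sum. The share of a cell's cut sites that fell in peaks of the 3 markers had a median of 0.0482% in EP3 cells, with quartiles of 0.0336% and 0.0630% and a maximum of 0.149%. The median was 0.0293% in EP1, 0.0402% in EP2 and 0.0095% in OPC cells. No cut site fell in a marker peak in 8 of the 163 EP3 cells, against 97 of the 301 EP1 cells, which were shallower. A cut in the Foxj1 peak was found in 90.8% of EP3 cells, 53.2% of EP1 cells and 96.6% of EP2 cells. With each cell thinned to 5000 cut sites, which kept 159 EP3, 222 EP1 and 290 EP2 cells, those shares were 71.7%, 50.9% and 66.2%. Among the 15 nearest cells of each EP3 cell in a 30-component space built from all peaks, a mean of 82.4% were EP3, 11.3% EP1 and 6.34% EP2, and none belonged to a non-ependymal class. The classes were presumably made from the same cut sites, so these shares describe the grouping and are no independent check of it. EP1 cells had a mean of 5.52% EP3 neighbours and EP2 cells 7.45%. The 55 shallowest EP3 cells had a mean of 72.9% EP3 neighbours, the middle 54 had 89.1% and the deepest 54 had 85.4%. The first component, with a Pearson's r of 0.992 with log10 depth, was left out of that space. Depth was not fully removed with it, since component 5 had an r of 0.564 and component 4 of -0.322. The ependymal classes differ in depth, and its part in these shares was not tested.

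**Figure D1:**
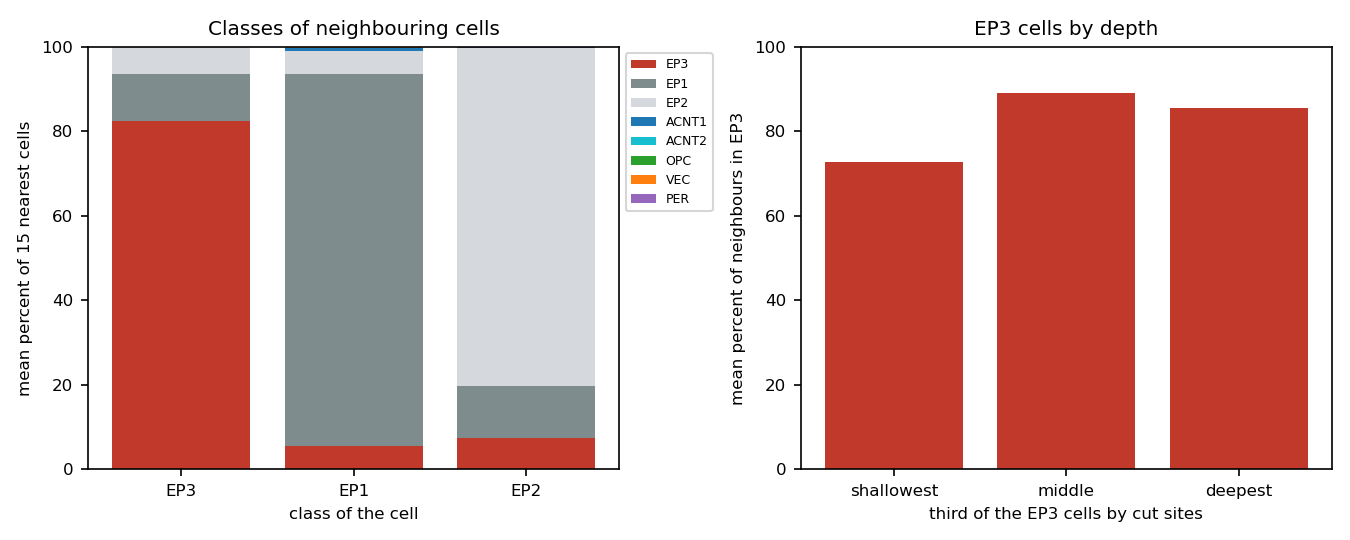
Mean percentage of each class among the 15 nearest cells, for cells of EP3, EP1 and EP2, and mean percentage of EP3 neighbours for EP3 cells split into 3 groups by depth. EP3 cells had 82.4% EP3 cells around them and no cell of a non-ependymal class, and the 55 shallowest EP3 cells had fewer EP3 neighbours (72.9%) than the others. The classes were presumably made from the same cut sites, so the shares are no independent check of them.

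Genes of motile cilia were more open in EP3 than in the non-ependymal cells. Of 39 axoneme genes with a peak near their start, 22 were at least 2-fold higher in EP3 than in the non-ependymal cells and none was lower, among the 36 that passed the level filter (mean of at least 10 CPM over both sides). Of 28 genes of the dynein arms and their assembly, 12 were higher and none lower, of 27 that passed. Over all genes that passed, 5.68% were at least 2-fold higher and 9.87% lower. Medians were taken over all genes with a peak, whether or not they passed. The median log2 ratio was 1.52 for the axoneme genes and 0.92 for the dynein genes, against -0.38 for all genes. The list of other ependymal genes had 10 of 18 higher and none lower, with a median of 1.49.

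Single genes show the contrast. Spag16, of the central pair, gave 53.9 CPM in EP3, 56.5 CPM in EP1, 52.7 CPM in EP2 and 3.14 CPM in the non-ependymal cells. Spag17, also of the central pair, gave 27.2 CPM in EP3, 14.8 CPM in EP1, 22.2 CPM in EP2 and 0.82 CPM outside. Rsph4a, a radial spoke head protein, gave 43.8 CPM in EP3, 48.5 CPM in EP1, 34.3 CPM in EP2 and 5.19 CPM outside. These genes thus separated EP3 from the non-ependymal cells far more than from EP1 and EP2. Dnah12, a dynein heavy chain, gave 32.9 CPM in EP3, 18.7 CPM in EP1, 33.0 CPM in EP2 and 1.64 CPM outside, and Dnah10, another heavy chain, gave 34.0, 30.1, 31.9 and 3.55 CPM in the same order. Hydin, needed for the central pair, gave 24.6 CPM in EP3, 15.8 CPM in EP1, 23.2 CPM in EP2 and 4.64 CPM outside. Cfap52, a cilia and flagella associated protein, was the 1 axoneme gene at least 2-fold higher in EP3 than in EP1, with 34.7 CPM in EP3, 15.5 CPM in EP1 and 29.9 CPM in EP2. No axoneme or dynein gene that passed was 2-fold apart between EP3 and EP2, where 0.22% of all genes were higher and 0.195% lower.

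The 10 genes with the highest log2 ratios against the non-ependymal cells were Ccdc81, 1700016C15Rik, Igll1, T2, Odf3b, Tymp, Fam166c, Rbp2, Cdhr3 and 1700094D03Rik. Ccdc81 gave 43.8 CPM in EP3, 35.2 CPM in EP1, 33.9 CPM in EP2 and 0.82 CPM outside, a log2 ratio of 4.62. Odf3b gave 74.3 CPM in EP3, 46.8 CPM in EP1, 54.1 CPM in EP2 and 3.14 CPM outside; Tymp lies beside it. Fam166c gave 66.6 CPM in EP3, 50.5 CPM in EP1, 58.6 CPM in EP2 and 2.73 CPM outside, a log2 ratio of 4.18. These 3 were open in all 3 ependymal classes and near 0 in most others. Tmem212, a membrane protein gene, gave 68.3 CPM in EP3, 43.4 CPM in EP1, 45.7 CPM in EP2 and 10.9 CPM outside.

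The factors that drive the cilia programme were less separated. Of 16 such genes with a peak, 4 were at least 2-fold higher in EP3 than outside and none lower, of 15 that passed the filter: Foxj1, Myb, Mcidas and Ccno. Over all genes that passed, 5.68% were higher and 9.87% lower. Myb, which acts in cells that make many cilia, gave 102.6 CPM in EP3, 93.7 CPM in EP1, 94.6 CPM in EP2 and 23.2 CPM outside. Mcidas, which starts the multiciliated programme, gave 18.8 CPM in EP3, 21.4 CPM in EP1, 17.2 CPM in EP2 and 3.28 CPM outside. Gmnc, which acts with Mcidas, gave 13.5 CPM in EP3, 12.1 CPM in EP1, 8.70 CPM in EP2 and 1.91 CPM outside, below the filter. The RFX genes were open everywhere: Rfx2 gave 102.2 CPM in EP3, 106.3 CPM in EP1, 83.5 CPM in EP2 and 99.9 CPM outside, and Rfx3 gave 82.9 CPM in EP3, 77.4 CPM in EP1, 78.9 CPM in EP2 and 130.5 CPM outside. None of the 29 genes of intraflagellar transport and the BBSome that passed the filter was 2-fold apart. Over the 30 with a peak, the median log2 ratio against the non-ependymal cells was -0.05. It lies on the other side of 0 once classes are scaled to the 5000 least variable peaks. That scaling raises every ratio against those cells by 0.244. Ift88, a train protein that all cilia need, gave 40.0 CPM in EP3, 33.2 CPM in EP1, 39.1 CPM in EP2 and 38.1 CPM outside.

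**Figure D2:**
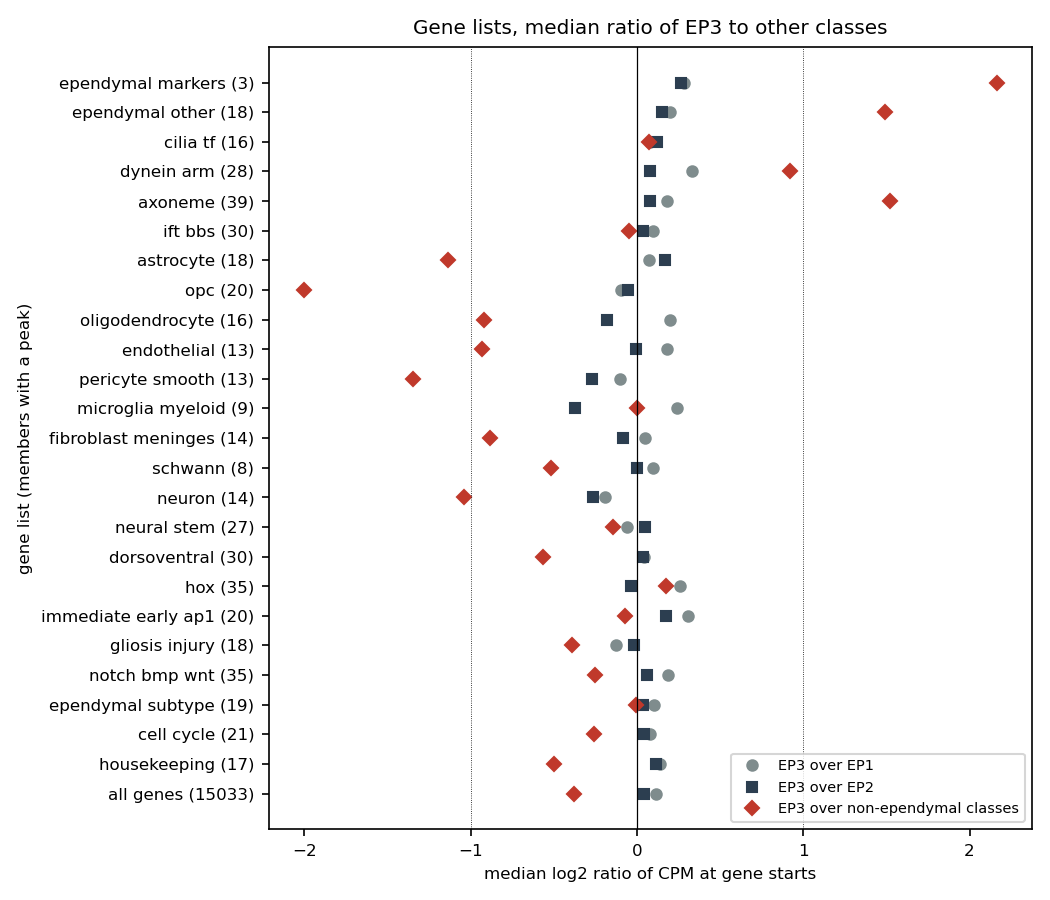
Median log2 ratio of EP3 over EP1, over EP2 and over the pooled non-ependymal cells for each of 24 gene lists and for all genes. Medians are over all members with a peak near their start, whether or not they passed the level filter. Against the non-ependymal cells the axoneme median was 1.52 and the OPC median -2.005, against -0.38 for all genes, whereas medians against EP1 and EP2 lay close to 0.

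The X-box hexamer printed above was more frequent at promoters of genes higher in EP3 than outside. The X-box hexamer was present in 12.7% of the 17492 promoters in the RefSeq table, in 13.4% of the 9947 promoters whose genes passed the filter, and in 130 of 518 promoters (25.1%) of genes at least 2-fold higher in EP3 than in the non-ependymal cells. Genes at least 2-fold lower in EP3 had it in 9.75% of promoters. By list, the hexamer was found in 15 of 32 axoneme promoters (46.9%), 8 of 22 dynein promoters (36.4%) and 10 of 27 intraflagellar transport and BBSome promoters (37.0%). The hexamer was thus about as frequent at the transport genes, which were open in every class, as at the dynein genes. The longer X-box core GTTGCCATG was rare. It was found in 0.623% of all promoters, in 0.744% of those that passed and in 9 of the 518 (1.74%). Of the 32 axoneme promoters 1 held it, and none of the 22 dynein or 27 transport promoters did. Counts of the hexamer are therefore not counts of this longer core. The forkhead motif was found in 2.94% of all promoters, in 2.3% of those that passed and in 28 of the 518 (5.41%), but in 2 of the 32 axoneme promoters and in none of the 22 dynein or 27 transport promoters. Among genes at least 2-fold higher in EP3 than in EP1, it was found in 3 of 159 promoters (1.89%). For genes higher than in EP2 it was found in 1 of 17. The motif at Anxa8 is thus no common feature of these sets. Against the promoters that passed, the X-box hexamer was not alone in its ratio: the AP-1 motif TGANTCA was found in 4.19% of them and in 44 of the 518 (8.49%). Over all promoters, however, the AP-1 share was 7.08%, close to that of the 518. The ETS motif CCGGAAG, searched likewise on both strands, was found in 11.9% of all promoters and in 18.4% of those that passed. It was found in 7.14% of promoters of genes higher in EP3 than outside, but in 40 of 159 (25.2%) of genes at least 2-fold higher in EP3 than in EP1. A match of letters is a description and no evidence of binding.

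Several defining genes of other cell types were nearly closed in EP3. Olig2, a factor of the oligodendrocyte lineage, gave 6.75 CPM in EP3, 1.94 CPM in EP1, 5.17 CPM in EP2 and 134.1 CPM in the non-ependymal cells, where ACNT1 (225.8 CPM) exceeded OPC (102.7 CPM). Sox10, of the same lineage, gave 0.55 CPM in EP3, 1.94 CPM in EP1, 1.90 CPM in EP2 and 72.4 CPM in OPC. Slc7a10, an amino acid transporter of astrocytes, gave 4.02 CPM in EP3, 3.15 CPM in EP1, 7.53 CPM in EP2 and 288.3 CPM in ACNT1. Cldn5, a tight junction protein of endothelium, gave 1.46 CPM in EP3 and 146.8 CPM in VEC. None of the 4 reached 10 CPM in EP3. Against the non-ependymal cells, 12 of the 18 OPC genes that passed, 10 of 18 astrocyte genes, 4 of 9 oligodendrocyte genes, 4 of 7 neuronal genes and 4 of 8 fibroblast genes were at least 2-fold lower in EP3, and none of these lists had a member at least 2-fold higher. Over all genes that passed, 9.87% were lower and 5.68% higher. None of the 4 microglial genes that passed was 2-fold apart. Of 13 endothelial genes with a peak 5 passed, with 1 higher and 2 lower, and of 13 pericyte and smooth muscle genes 8 passed, with 1 higher and 3 lower.

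Summed over whole lists, EP3 was not at 0 for any of these cell types, and its sums lay near those of EP1 and EP2 for most. Peaks of the astrocyte genes summed to 557.6 CPM in EP3, 535.8 CPM in EP1, 522.1 CPM in EP2 and 1994.6 CPM in ACNT1. Peaks of the OPC genes summed to 554.2 CPM in EP3, 567.8 CPM in EP1, 577.9 CPM in EP2 and 1539.2 CPM in OPC. For endothelial genes the sums were 393.7 CPM in EP3, 347.5 CPM in EP1, 339.0 CPM in EP2 and 1202.5 CPM in VEC. These 3 sums lay close together over the ependymal classes and far below those of the class each list marks. Neuronal genes summed to 92.2 CPM in EP3, 114.3 CPM in EP1 and 110.6 CPM in EP2, and microglial genes to 225.4, 213.3 and 236.0 CPM in the same order, beside 210.0 CPM in the non-ependymal cells. Oligodendrocyte genes spread more, at 225.4 CPM in EP3, 184.4 CPM in EP1 and 241.5 CPM in EP2. The part of other cells in these sums was not tested.

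Some genes of the oligodendrocyte lineage were nonetheless open in EP3. Sox6, a factor of progenitors, gave 257.0 CPM in EP3, 212.1 CPM in EP1, 262.8 CPM in EP2 and 195.0 CPM outside. Sox8 gave 28.5 CPM in EP3, 22.8 CPM in EP1, 35.9 CPM in EP2 and 118.0 CPM outside. Of 14597 peaks with at least 20 CPM in OPC, 82.0% had at least 10 CPM in EP3, 80.6% in EP1 and 84.4% in EP2, beside 80.5% in ACNT1 and 84.1% in ACNT2. Most of these lay at gene starts. Of the 4587 away from starts, 61.3% had at least 10 CPM in EP3, 62.0% in EP1, 66.2% in EP2, 64.4% in ACNT1 and 68.2% in ACNT2, so EP3 had the lowest share of the 5 classes. Across gene bodies, 10 of the 36 peaks in Sox6 reached 10 CPM in EP3, against none of the 4 in Olig2, none of the 4 in Sox10 and none of the 35 in Xylt1, of which 10 did so in OPC.

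Between EP3 and the other ependymal classes, few gene starts differed. Of 11595 genes that passed the filter against EP1, 203 were at least 2-fold higher in EP3 (1.75%) and 60 lower (0.517%). Of 11820 against EP2, 26 were higher (0.22%) and 23 lower (0.195%). Over all 96670 peaks, Pearson's r of log2 levels was 0.953 between EP3 and EP2, 0.929 between EP3 and EP1 and 0.952 between EP1 and EP2, and between 0.538 and 0.668 from EP3 to the non-ependymal classes. The classes share the library and differ in depth.

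Several signalling genes were among the few that stood higher in EP3 than in both. Jag2, a ligand of Notch receptors, gave 40.3 CPM in EP3 (33.3 to 48.5), 9.71 CPM in EP1 (5.93 to 14.99) and 16.7 CPM in EP2 (13.9 to 19.8) at chr12:112928292-112930565, over its start. The log2 ratio was 1.95 against EP1 (interval of the ratio of fragments, 1.39 to 2.85) and 1.23 against EP2 (0.92 to 1.68). A cut site was found there in 42.9% of EP3, 5.65% of EP1 and 26.9% of EP2 cells, and at 5000 cut sites per cell in 17.6%, 4.51% and 6.90%. Jag2 was open outside the ependymal classes in VEC, at 72.3 CPM. The other Notch genes did not follow it: Notch1, a receptor, gave 276.5 CPM in EP3, 262.1 CPM in EP1 and 232.3 CPM in EP2, and Jag1, another ligand, gave 97.1 CPM in EP3, 118.9 CPM in EP1 and 86.8 CPM in EP2. Hes1, a target of Notch, gave 212.7 CPM in EP3, 244.6 CPM in EP1 and 202.6 CPM in EP2. Of 25 Notch, BMP and Wnt genes that passed, 3 were at least 2-fold higher in EP3 than in EP1 (Jag2, Dkk3 and Wnt7b), 2 were higher than in EP2 (Jag2 and Wnt4), and none was lower. Over all genes that passed, 1.75% were higher than in EP1 and 0.22% higher than in EP2.

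Wnt4, a secreted Wnt ligand, gave 51.8 CPM in EP3, 29.4 CPM in EP1 and 24.5 CPM in EP2. Wnt7b, another Wnt ligand, gave 29.9 CPM in EP3, 12.6 CPM in EP1 and 24.3 CPM in EP2. Dkk3, a secreted protein of the Dickkopf family, gave 61.7 CPM in EP3, 29.6 CPM in EP1 and 41.1 CPM in EP2, over 4 peaks. Each of the 3 was past 2-fold against 1 of the ependymal classes only. Fst, which binds and blocks activin, gave 18.6 CPM in EP3, 4.61 CPM in EP1 and 5.24 CPM in EP2. Scube3, a secreted protein with EGF-like repeats, gave 49.5 CPM in EP3, 15.8 CPM in EP1 and 16.5 CPM in EP2, with log2 ratios of 1.59 and 1.53; its main peak covers its start at chr17:28140341-28143306.

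Other genes among the highest ratios have varied roles. Eppk1, a plakin that binds keratin filaments, gave 29.4 CPM in EP3 (23.5 to 36.3), 5.34 CPM in EP1 and 9.68 CPM in EP2, with log2 ratios of 2.26 and 1.51. Anxa8, an annexin that binds membranes in the presence of calcium, gave 21.2 CPM in EP3, 5.34 CPM in EP1 and 7.39 CPM in EP2, with log2 ratios of 1.81 and 1.40. Mtus2, a microtubule-associated protein, gave 31.0 CPM in EP3, 8.49 CPM in EP1 and 13.7 CPM in EP2. All 3 were higher than in both EP1 and EP2 by at least 2-fold. Igll1, of the pre-B cell receptor, gave 29.2 CPM in EP3, 9.22 CPM in EP1 and 4.51 CPM in EP2, but its peak at chr16:16865822-16866744 lies upstream of the start and not over it. Prr29 gave 15.7 CPM in EP3, 4.37 CPM in EP1 and 4.45 CPM in EP2. Dpcd and Tagln passed 2-fold against EP1 only. Dpcd, named for its link to ciliary dyskinesia, gave 22.8 CPM in EP3, 4.85 CPM in EP1 and 17.01 CPM in EP2, from a peak that also counts for Poll. Tagln, an actin-binding protein of smooth muscle, gave 23.7 CPM in EP3, 9.71 CPM in EP1 and 15.1 CPM in EP2, but its log2 ratio of 1.21 against EP1 was 0.73 at 5000 cut sites per cell.

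The bulk ependymal RNA held several of these transcripts, though it cannot tell the classes apart. Normalised counts in the 2 libraries were 121.6 and 125.4 for Jag2, 43.1 and 65.7 for Scube3, 207.1 and 233.0 for Anxa8, 149.3 and 124.5 for Prr29, and 709.2 and 781.3 for Trp73. Fst was at 1.0 and 3.4.

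Trp73 codes for p73, a relative of p53 that multiciliated cells need, and it has 2 starts in the RefSeq table. Its 2 peaks were looked at singly after its values were seen. At the internal start (chr4:154096571-154097650) EP3 had 68 cut sites in 26 cells, EP1 had 0 and EP2 had 24 in 11 cells, which gives 12.4 CPM in EP3 (8.69 to 17.2), 0.0 CPM in EP1 and 1.57 CPM in EP2 (0.859 to 2.64). EP3 was at least 17.1-fold higher than EP1, taking 3 cut sites over the class (0.728 CPM) as the floor for a count of 0; the 95% interval of the ratio of fragments starts lower, at 6.96. It was 7.90-fold higher than EP2 (3.78 to 14.4). At the upstream start (chr4:154139755-154141206) the levels were 4.93 CPM in EP3, 3.64 CPM in EP1 and 6.35 CPM in EP2, with overlapping intervals, and ACNT2 had 12.7 CPM. The difference therefore sat at the internal start.

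**Figure D3:**
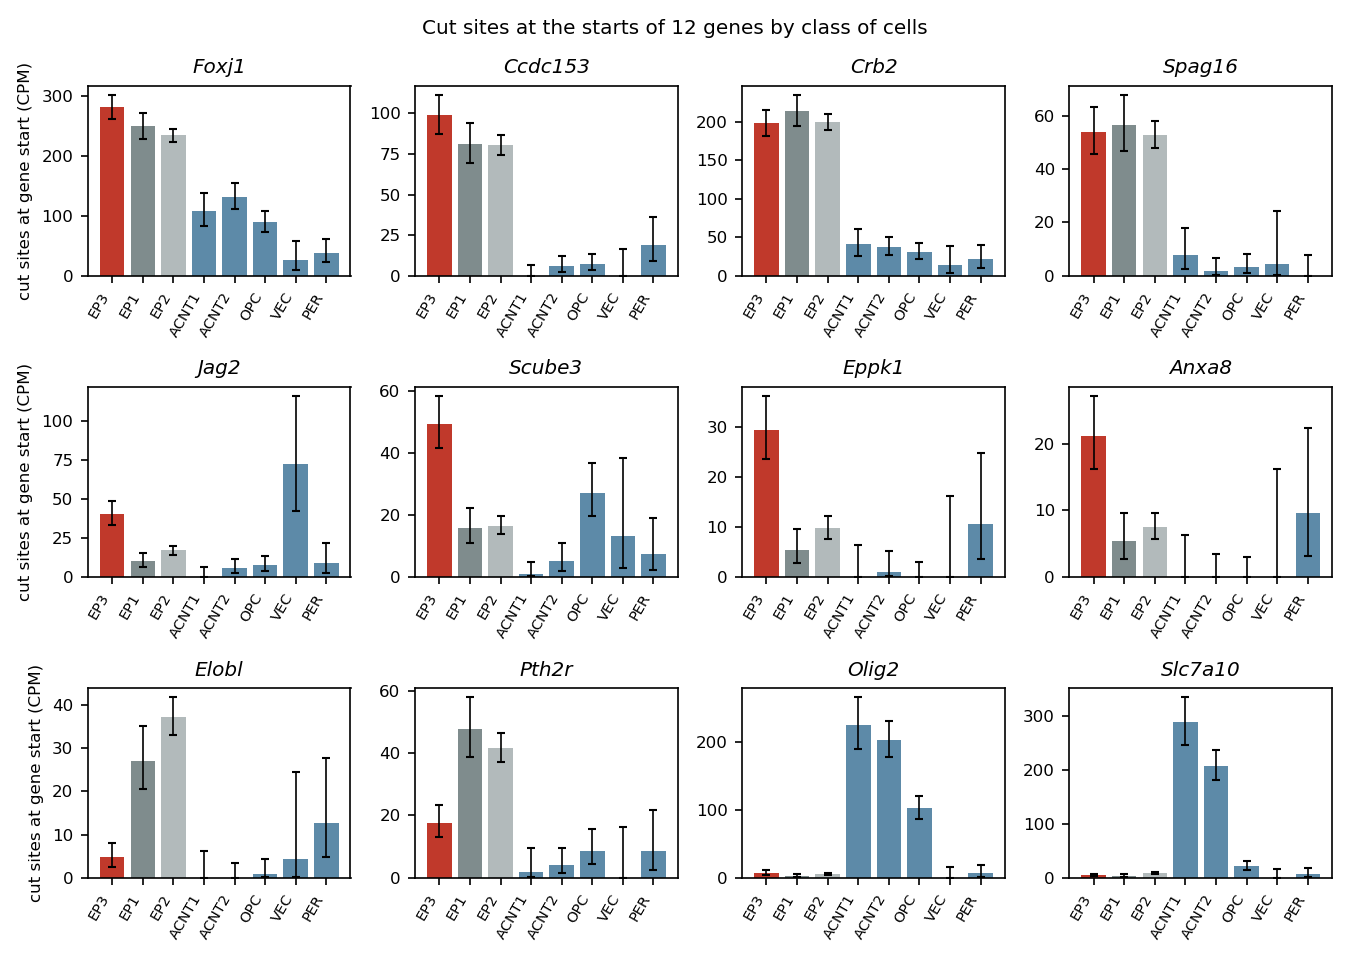
Summed cut sites in CPM for 12 genes in each of the 8 classes, EP3 first, with bars for the level and whiskers for the 95% Poisson interval on fragments. Foxj1, Ccdc153, Crb2 and Spag16 were open in all 3 ependymal classes, Jag2, Scube3, Eppk1 and Anxa8 were highest among them in EP3, Elobl and Pth2r were lowest among them in EP3, and Olig2 and Slc7a10 were near 0 in all 3.

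The genes lower in EP3 were fewer than the higher ones against EP1 (60 and 203), but about as many against EP2 (23 and 26), where more were lower than higher under other scaling (32 and 23), over gene bodies (48 and 32) and with thinned cells (223 and 154). Elobl gave 4.75 CPM in EP3 (2.53 to 8.12), 27.2 CPM in EP1 (20.5 to 35.3) and 37.4 CPM in EP2 (33.2 to 42.0), with log2 ratios of -2.29 against EP1 and -2.74 against EP2, the lowest gene in both comparisons. Its peak at chr11:88967806-88970744 lies upstream of the start, and its transcript was at 1.8 and 2.1 normalised counts in the bulk libraries. Pth2r, a receptor of the parathyroid hormone family, gave 17.5 CPM in EP3, 47.6 CPM in EP1 and 41.6 CPM in EP2, with log2 ratios of -1.39 and -1.20, and 182.8 and 156.3 counts in bulk RNA. Both were lower in EP3 than in either class, and neither of their EP3 intervals reached the other classes' levels. Dysf, a protein of membrane repair, gave 8.76 CPM in EP3, 26.0 CPM in EP1 and 21.3 CPM in EP2. Igf1, a growth factor, gave 8.94 CPM in EP3, 28.9 CPM in EP1 and 17.8 CPM in EP2. Slc17a4, a solute carrier, gave 6.94 CPM in EP3, 25.5 CPM in EP1 and 16.9 CPM in EP2. Slc6a11, a GABA transporter of astrocytes, was the 1 gene of the astrocyte list past 2-fold: it gave 10.2 CPM in EP3, 12.4 CPM in EP1 and 22.0 CPM in EP2, with a log2 ratio of -1.03 against EP2. For some of the lowest genes the size differed once cells were thinned. Bhmt, of methionine metabolism, gave 15.3 CPM in EP3, 42.5 CPM in EP1 and 32.7 CPM in EP2, but its log2 ratios of -1.41 and -1.05 were -0.88 and -0.44 at 5000 cut sites per cell. Aqp2, a water channel, gave 10.4 CPM in EP3, 20.4 CPM in EP1 and 30.4 CPM in EP2, and at 5000 cut sites per cell its log2 ratio against EP1 was 0.03.

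Positional and regional genes differed little between EP3 and the other ependymal classes, as did genes at large. Over all genes that passed, 1.75% were at least 2-fold higher and 0.517% lower in EP3 than in EP1. Against EP2 these shares were 0.22% and 0.195%. A count of none in lists as small as those below therefore says little about them. None of the 27 Hox genes that passed was 2-fold apart between EP3 and EP1 or EP2. Hoxb9 gave 314.5 CPM in EP3, 220.1 CPM in EP1 and 318.1 CPM in EP2. None of the dorsoventral patterning genes that passed (13 against EP1, 14 against EP2) was 2-fold apart either. Nkx6-1, a ventral factor, gave 221.8 CPM in EP3, 225.9 CPM in EP1 and 224.0 CPM in EP2, against 66.8 CPM outside. Pax6, of the intermediate and dorsal neural tube, gave 241.5 CPM in EP3, 258.4 CPM in EP1 and 263.1 CPM in EP2. These levels were nearly equal over the 3 classes. Against the non-ependymal cells, 10 of 21 dorsoventral genes were at least 2-fold lower in EP3, among them 4 of the Zic family and Pax3. Over all genes that passed, 9.87% were lower than in those cells. The neural stem genes were also level: Sox2 gave 135.1 CPM in EP3, 131.0 CPM in EP1 and 125.2 CPM in EP2, and Sox9 gave 155.7 CPM in EP3, 118.9 CPM in EP1 and 140.7 CPM in EP2. Vim, the intermediate filament vimentin, gave 170.5 CPM in EP3, 248.5 CPM in EP1 and 191.9 CPM in EP2. None of the 20 cell cycle genes that passed was 2-fold apart between EP3 and EP1 or EP2.

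Most of what differed between the ependymal classes lay away from gene starts. Of 24086 peaks that passed the filter against EP1, 573 were at least 2-fold higher in EP3 (2.38%) and 682 lower (2.83%). Of 24479 against EP2, 248 were higher (1.01%) and 291 lower (1.19%), or 208 and 421 when classes were scaled to the least variable peaks. As a scale, EP1 against EP2 gave 104 higher (0.422%) and 212 lower (0.86%) of 24649. Of the peaks tested against EP1, 44.4% lay within 2 kb of a gene start, 30.9% inside a gene and 24.7% between genes. Those higher in EP3 than in EP2 lay at starts in 11.7%, inside genes in 39.9% and between genes in 48.4%, and those lower lay at starts in 9.97%. Those higher than in EP1 lay at starts in 36.0%, and those lower in 9.97%.

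Against the non-ependymal cells the difference was far larger: 5433 of 23318 peaks were at least 2-fold higher in EP3 (23.3%) and 2947 lower (12.6%), or 6048 and 1779 on the least variable peaks. Gene counts turned on this choice, with 705 higher and 1225 lower in the main scaling and 933 higher and 714 lower in the other. For EP2 the gene counts were 23 higher and 32 lower in the other scaling. Of the higher peaks, 14.3% lay at starts, against 42.3% of the lower ones and 49.5% of all those tested.

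A set of 120 peaks of 24395 (0.492%) was at least 2-fold higher in EP3 than in both EP1 and EP2, and 253 (1.04%) were lower than in both; this pair of counts was added after the data were seen. The 120 had a median of 28.3 CPM in EP3, 8.74 CPM in EP1 and 8.74 CPM in EP2. In 78 of the 120 no non-ependymal class reached 10 CPM, against 4575 of all 24395 peaks tested. In 23 (19.2%) ACNT1, ACNT2 or OPC did, against 74.8% of all peaks tested. The 120 were picked by their EP3 level, and 14.2% of them lay within 2 kb of a gene start, against 44.4% of all tested. The part of selection and location in this contrast was not tested. The 253 had medians of 6.21 CPM in EP3, 19.9 CPM in EP1 and 17.3 CPM in EP2, and 103 (40.7%) had at least 10 CPM in ACNT1, ACNT2 or OPC, whereas in 130 no non-ependymal class did. The 120 lay in or nearest to 116 genes, 4 of them with 2 peaks (Banf2, Fhod3, Rapgef1 and Traf3ip2), so they were scattered and not gathered at a few loci.

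Among peaks with a mean of at least 20 CPM, the one with the highest ratio against EP1 and against EP2 was at chr16:29775520-29776635, between Opa1, whose end is the nearest gene boundary at 112393 bases, and other genes that include Hes1. It gave 45.1 CPM in EP3 (37.6 to 53.7), 4.61 CPM in EP1 and 3.93 CPM in EP2, with log2 ratios of 3.04 (2.32 to 4.34) and 3.23 (2.97 to 4.18). A cut site was found there in 74 of 163 EP3 cells (45.4%), 9 of 301 EP1 cells (2.99%) and 20 of 290 EP2 cells (6.90%), and at 5000 cut sites per cell in 20.1%, 3.15% and 2.07%. Every non-ependymal class was below 2 CPM, and EP3 had the highest level of the 8 classes. A peak at chr14:18716040-18717473 inside Ube2e2, a ubiquitin-conjugating enzyme, gave 37.6 CPM in EP3, 4.61 CPM in EP1 and 1.77 CPM in EP2. Its log2 ratio of 2.78 was the second highest against EP1, and its 3.80 against EP2 exceeded that of the first peak, but its mean with EP2 was under the level needed for that ranking. It was cut in 38.7% of EP3, 1.99% of EP1 and 3.10% of EP2 cells. A peak at chr19:56702908-56703934, whose centre lies 18.7 kb from the start of Adrb1, an adrenergic receptor, gave 42.5 CPM in EP3, 6.55 CPM in EP1 and 12.04 CPM in EP2. Some were open elsewhere as well. The peak at chr11:121044740-121046234 near Cd7 gave 50.4 CPM in EP3, 8.01 CPM in EP1, 15.4 CPM in EP2 and 31.3 CPM in ACNT2. The one at chr4:57610979-57612891 in Pakap gave 33.8 CPM in EP3, 3.40 CPM in EP1, 8.05 CPM in EP2 and 24.0 CPM in OPC. By contrast, the one at chr10:19463986-19465143, nearest to Olig3, gave 35.8 CPM in EP3, 11.9 CPM in EP1 and 9.23 CPM in EP2, and under 1 CPM in every other class. Whether these peaks act on the genes they lie near was not tested.

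The 253 lower peaks lay in or nearest to 240 genes, 13 of them with 2 peaks: Adra2a, Bmpr1b, Eipr1, Nos1ap, Ntrk3, Plxna2, R3hcc1l, Slc6a11, Slit3, St3gal1, Tenm2, Tshz1 and Unc5d. How many genes hold 2 of all the peaks tested was not counted, so no theme is drawn from these pairs. Values are given for 5 of the 13 genes, chosen after the values were seen. At Slit3, a secreted ligand of Robo receptors, the 2 peaks averaged 7.58 CPM in EP3, 33.5 CPM in EP1 and 25.8 CPM in EP2. At Unc5d, a netrin receptor, they averaged 5.29 CPM in EP3, 22.0 CPM in EP1 and 14.9 CPM in EP2. At Plxna2, a semaphorin receptor, they averaged 5.93 CPM in EP3, 19.3 CPM in EP1 and 15.2 CPM in EP2. Ntrk3, a neurotrophin receptor, and Tenm2, a teneurin of cell adhesion, averaged 7.21 and 7.67 CPM in EP3, 27.4 and 28.3 CPM in EP1 and 21.1 and 24.2 CPM in EP2. The peak with the lowest ratio against EP1, at chr11:35151191-35152321 inside Slit3, gave 8.40 CPM in EP3 (5.38 to 12.5), 48.8 CPM in EP1 and 36.9 CPM in EP2, with log2 ratios of -2.41 and -2.01; against EP2 only the Elobl peak was lower. It was cut in 12.9% of EP3, 24.3% of EP1 and 48.3% of EP2 cells, and at 5000 cut sites per cell in 6.92%, 18.9% and 14.1%. A peak inside Slc6a11 (chr6:114173543-114175789) gave 14.1 CPM in EP3, 32.8 CPM in EP1, 45.0 CPM in EP2 and 99.8 CPM in ACNT1. One near Rhcg, an ammonium transporter, at chr7:79571846-79572969, gave 8.40 CPM in EP3, 35.4 CPM in EP1, 32.9 CPM in EP2 and 40.5 CPM in OPC. These last 2 were thus lower in EP3 than in both other ependymal classes and open in a non-ependymal class. The Slc6a11 peak was not closed in EP3, where 17.2% of cells had a cut in it, against 14.6% of EP1 cells and 60.3% of EP2 cells. At 5000 cut sites per cell those shares were 5.66%, 10.8% and 19.7%, so EP3 was then the lowest of the 3.

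**Figure D4:**
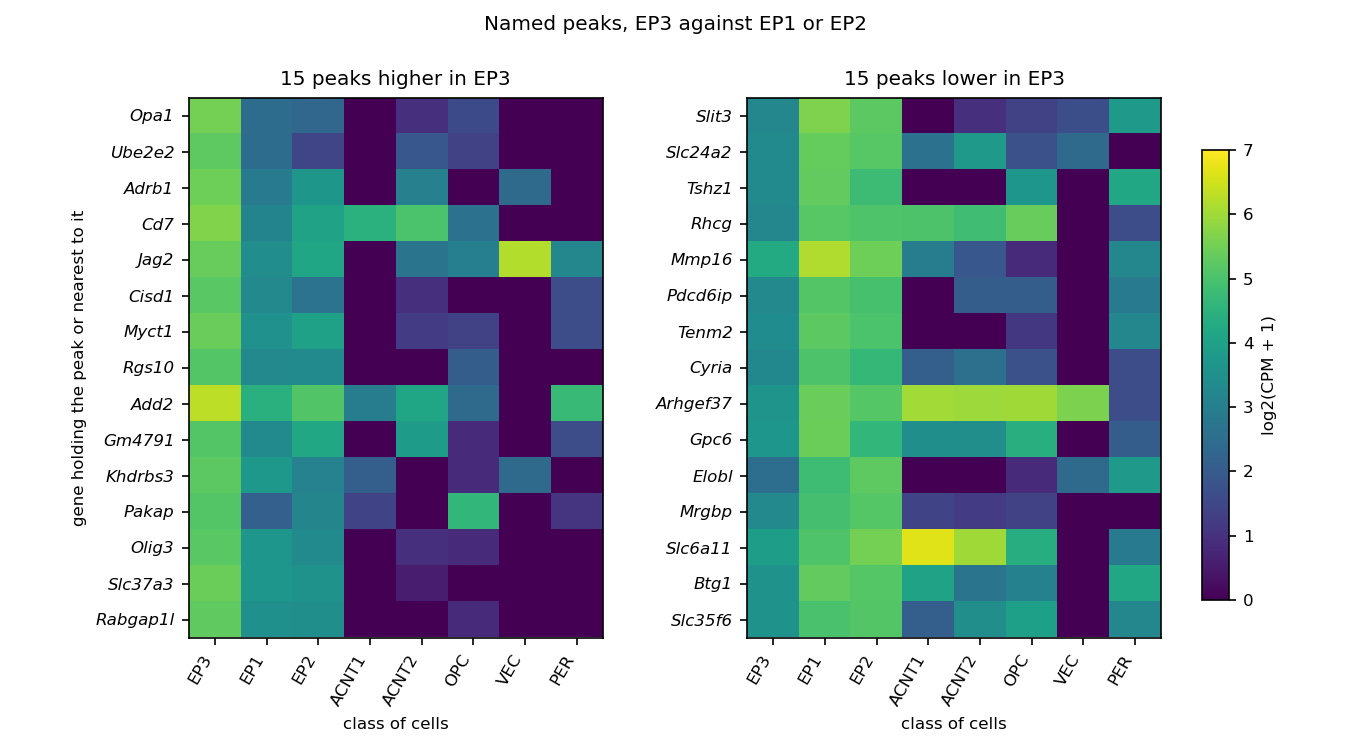
Level of 15 peaks higher in EP3 (left) and 15 lower in EP3 (right) in each class, as log2(CPM + 1), named by the gene that holds the peak or lies nearest. Most higher peaks were near 0 in most non-ependymal classes, with exceptions that include Jag2 in VEC (72.3 CPM), Cd7 in ACNT2 (31.3 CPM), Pakap in OPC (24.0 CPM) and Add2 in PER, and some lower ones, such as Slc6a11, Rhcg, Arhgef37 and Gpc6, were open in ACNT1, ACNT2 or OPC.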

How the data were processed

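Per the labels, the single-cell ATAC-seq library came from sorted non-neuronal cells of uninjured spinal cord. Cell Ranger ATAC and mm10 are named per the submitters' processing notes; versions, animals and the way the authors filtered cells and made classes are not given in the sources used here. The deposited matrix holds raw counts of cut sites per peak and cell. The deposited cell table gives counts of fragments, the percent of fragments in peaks, and ratios (enrichment at starts, nucleosome signal). The bulk values are a signal deposited by the authors as normalised counts, with scaling not stated. Members and gene lists were chosen with earlier results of these data known.

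Cut sites were summed per class and scaled to CPM, with a pseudocount of 1. Ratios are described where the mean of both sides was at least 10 CPM (20 for named peaks), and 2-fold is the threshold. Of 21900 genes in the RefSeq table (GRCm38.p6), 15033 had a peak within 2 kb of a start; for the 4408 with no strand, both ends were used. Exons and introns were not used. Most entries were even (89.9%), so fragments were taken as cut sites per cell and peak divided by 2 and rounded up, and exact Poisson and conditional binomial 95% intervals were computed on them. Neighbours came from TF-IDF and singular value decomposition (30 components, the first left out). Promoters were searched at the first listed start of each gene. No doublet caller was run. Named genes were the 10 highest and 10 lowest of each comparison, the markers and up to 4 members of each list, and others where a count or sentence needed them. Named peaks were the 10 highest and 10 lowest. Steps were checked on simulated counts. Alternatives changed the pseudocount, filter, scaling, depth per cell, cap per peak, deepest cells and gene window. Python 3.11.15, numpy 2.4.6, pandas 2.3.3, scipy 1.17.1, scikit-learn 1.9.0 and matplotlib 3.10.9 were used.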

Additional observations from a re-analysis of the deposited data

How the results depend on the processing

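No paired analysis was possible because the ATAC-seq data are 1 library. Counts of peaks against EP1, EP2 and the non-ependymal cells moved by more than 1.5 times with the level filter. Between the ependymal classes they also did so with a pseudocount of 5 CPM and with cells thinned to 5000 cut sites. Against the non-ependymal cells they did not: the higher peaks were 4773 and 5766 in those 2 settings, and the lower ones 2193 and 3612. Against EP1, the 573 higher peaks were 1305 at a minimum of 5 CPM, 174 at 20 CPM, 5366 with no filter, 232 with the larger pseudocount and 1538 with thinned cells, and the 682 lower ones were 1807, 191, 6660, 290 and 1456 in that order. Against EP2, the 248 higher were 528, 84, 1467, 132 and 919, and the 291 lower were 1054, 51, 5992, 100 and 1164. Against the non-ependymal cells, the 5433 higher were 9420, 2419 and 20219 under the 3 filters, and the 2947 lower were 6633, 1019 and 18507, or 1779 when scaled to the least variable peaks. The 120 peaks above both classes were 73 with the larger pseudocount and 311 with thinned cells, and the 253 below both were 74 and 740. With thinned cells the genes higher and lower were 641 and 219 against EP1, and 154 and 223 against EP2. Over whole gene bodies, 96 were lower than in EP1 and 48 lower than in EP2. Scaled to the least variable peaks, 714 genes were lower than in the non-ependymal cells. Thinned sums hold far fewer cut sites, so ratios scatter more.

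The 10 highest and 10 lowest genes and peaks of each comparison kept their direction in that comparison in all 5 alternatives, 20 of 20 in each of 6 sets; outside its own set, Aqp2 against EP1 did not keep it with thinned cells. They stayed past 2-fold in all 5 for 18 of 20 genes and 19 of 20 peaks against EP1, for 11 and 18 against EP2, and for 20 and 20 against the non-ependymal cells. Of 300 list medians under the alternatives, 291 stayed on the same side of 2-fold, 9 crossed it, and none of those past 2-fold changed sign. The median share of EP3 neighbours was 93.3% with 15 components and 86.7% with 30 neighbours. The planned motif search around peak centres was not run, since no genome was used. With 1 library, variation between animals is not in any interval here.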
